A study of Homo sapiens with 18 samples.

Results

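Toll-like receptors (TLRs) are membrane proteins that recognize microbial products. The set described here holds 10 of the 56609 gene symbols in the deposited count table, chosen by symbol: the receptors TLR1, TLR2, TLR4, TLR6, TLR7, TLR8, TLR9 and TLR10, together with CD180 and LY86. TLR1, TLR2, TLR4, TLR6 and TLR10 sit mainly at the cell surface, where TLR2 pairs with TLR1 or TLR6 to bind bacterial lipopeptides and TLR4 binds lipopolysaccharide with its partner LY96 (MD-2). TLR7, TLR8 and TLR9 sit in endosomes and recognize nucleic acids, TLR7 and TLR8 single-stranded RNA and TLR9 DNA with unmethylated CpG motifs. After ligand binding most of these receptors recruit the adaptor MYD88, which leads to activation of NF-κB. CD180 (RP105) is a TLR-like surface protein of B cells that lacks the signalling domain of the TLRs, and LY86 (MD-1) is the secreted partner that CD180 needs to reach the surface, much as LY96 serves TLR4. B cells, including those of chronic lymphocytic leukaemia (CLL), are known to express TLR1, TLR6, TLR7, TLR9, TLR10 and CD180.

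RNA was sequenced from 3 EBV-positive CLL cell lines, HG3 and PCL12 with unmutated IGHV genes and MEC2 with mutated ones. Cells of each line were stimulated for 4 h with the TLR9 agonist ODN-2006, a synthetic CpG oligonucleotide, at 2.5 μg/mL, or were left unstimulated, with 3 libraries in each of the 6 groups and 18 in all. A line is a single established culture, so the replicates measure the spread between cultures of that line and not between patients, and where nothing states that cultures were grown separately this spread may be technical. Each replicate series held 1 stimulated and 1 unstimulated sample, so the libraries of a line form 3 pairs. All groups carry EBV, and a difference between lines cannot be assigned to IGHV status or any other single feature of a line.

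Libraries held 20382943 to 67308932 counts each, and 3 counts in a library correspond to 0.0429 to 0.155 CPM, the unit used here for counts relative to library size. The 8 B-cell markers summed to 5045 to 9571 CPM in every library, against 0.898 to 9.33 CPM for 9 monocyte or macrophage markers, 0.0302 to 2.63 for 5 T-cell markers, 1.05 to 10.8 for 4 NK-cell markers, 0 to 2.06 for 3 plasmacytoid dendritic cell markers and 135 to 567 for 4 plasma cell markers. CD14, which defines monocytes, had group means of at most 1.05 CPM. Mitochondrial transcripts took 2.82% to 20.2% of the counts, with the highest shares in unstimulated HG3 replicate 2 (20.2%) and CpG-stimulated MEC2 replicate 2 (19.7%). The PCL12 libraries of replicates 2 and 3 stood apart from those of replicate 1. Over 45 genes chosen for levels of 20 CPM or more throughout MEC2 together with no more than 10% of the MEC2 level in the 2 libraries of PCL12 replicate 1, these 4 libraries lay at a median of 29.0% to 31.3% of the MEC2 level, and the HG3 libraries at 6.61% to 14.2%. That choice sets replicate 1 low. Over 57 genes chosen in the same way on the 6 HG3 libraries, with no PCL12 library used, replicates 2 and 3 lay at 52.3% to 63.9% of the MEC2 level and replicate 1 at 26.7% and 26.8%. The PCL12 results that were called are therefore also given without replicates 2 and 3, except for cell type markers that are in no other list. This leaves 1 library in each PCL12 group, which is assumed to vary like the libraries of the other lines.

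The genes of the set lie on 6 chromosomes (positions from GENCODE release 44 on GRCh38). TLR10 (chr4:38772238-38782990), TLR1 (chr4:38790677-38856817) and TLR6 (chr4:38822897-38856817) lie on the minus strand within 84580 bases, with TLR6 inside the span of TLR1. TLR2 (chr4:153684070-153706260, plus strand) lies apart from them on the same chromosome. TLR7 (chrX:12867072-12890361) and TLR8 (chrX:12906620-12923169) are neighbours on the plus strand of the X chromosome, 16258 bases apart. TLR4 is at chr9:117704175-117724735 (plus), TLR9 at chr3:52221080-52225645 (minus), CD180 at chr5:67179613-67196799 (minus) and LY86 at chr6:6588108-6654983 (plus). Of the 3352 exon bases of TLR9, 3341 (99.7%) are shared with a readthrough gene on the same strand (chr3:52221081-52231190), which leaves 11 of its own. Counting programs commonly discard reads that fall on more than 1 gene, and the annotation used for counting is not given in the sources used here, so a low TLR9 count cannot be read as a low TLR9 level. The other members share at most 5.11% of their exon bases with another gene on their strand. TLR1 and TLR6, which are close relatives, share 57 exon bases, and 119 of the 4809 windows of 100 bases in the TLR1 transcripts (2.47%) also occur in TLR6 transcripts, so a small part of their reads could be split between them.

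Promoter windows of 250 bases before to 50 after the RefSeq gene start (GRCh38.p14) were read for 7 of the 10 members, without TLR1, TLR7 and TLR10. The windows of CD180 and LY86 are shown because the results turn on these partners, and that of TLR9 because it is the receptor of the stimulus. Capitals mark the letters GAGGAA, a form of the site of the ETS factor PU.1, on either strand (read as TTCCTC on the minus strand of the gene), and ATGCAAAT, the octamer bound by the B-cell factor POU2F2. The search covered both strands, and these motifs did not overlap each other. The sequences read 5′ to 3′ on the strand of the gene. For CD180 and TLR9 the RefSeq start is also the GENCODE start given above. For LY86 the RefSeq start is base 6588720, where 1 of the 2 GENCODE transcripts begins, 612 bases downstream of the GENCODE start of the gene.

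CD180 promoter (chr5:67196750-67197049, minus strand): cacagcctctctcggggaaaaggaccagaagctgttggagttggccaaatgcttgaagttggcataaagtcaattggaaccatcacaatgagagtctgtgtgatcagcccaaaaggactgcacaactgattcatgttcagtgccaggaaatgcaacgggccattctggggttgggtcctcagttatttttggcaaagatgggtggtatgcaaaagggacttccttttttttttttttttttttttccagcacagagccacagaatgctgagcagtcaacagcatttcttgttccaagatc

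LY86 promoter (chr6:6588470-6588769, plus strand): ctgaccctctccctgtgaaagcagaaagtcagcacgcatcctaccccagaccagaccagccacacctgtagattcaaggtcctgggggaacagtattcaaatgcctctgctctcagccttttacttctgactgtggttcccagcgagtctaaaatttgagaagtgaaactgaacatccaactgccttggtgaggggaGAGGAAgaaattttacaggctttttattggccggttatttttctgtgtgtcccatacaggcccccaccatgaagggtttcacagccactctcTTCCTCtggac

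TLR9 promoter (chr3:52225596-52225895, minus strand): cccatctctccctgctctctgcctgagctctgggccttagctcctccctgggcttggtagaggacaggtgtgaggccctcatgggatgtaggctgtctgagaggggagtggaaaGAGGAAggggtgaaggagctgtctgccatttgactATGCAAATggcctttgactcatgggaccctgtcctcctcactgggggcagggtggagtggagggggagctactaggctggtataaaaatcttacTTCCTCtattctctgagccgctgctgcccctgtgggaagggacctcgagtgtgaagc

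The CD180 window held neither GAGGAA nor ATGCAAAT, and shorter ETS factor sites were not searched in any window. The LY86 window held GAGGAA at -53 on the gene strand and at 39 on the other, and the TLR9 window held it at -136 and, on the other strand, at -7. GAGGAA occurs in 27.9% of 35116 promoter windows of this length. ATGCAAAT was found in the TLR9 window only, at -101, and occurs in 1.77% of all windows. CG dinucleotides numbered 2 in the CD180 and TLR9 windows, 3 in that of LY86 and 33 in that of TLR2, against a median of 14 over all windows.

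All 10 members passed the filter of at least 10 counts summed over the 18 libraries, which left 31872 genes for testing, and the CPM values given here are scaled with TMM factors. Their levels fell into 3 tiers. TLR10, an orphan receptor of the TLR1 family, was the most abundant with a mean of 161 CPM over the 18 libraries, above 96.3% of the tested genes. TLR6 (51.8 CPM), LY86 (43.99), TLR1 (32.1), TLR7 (25.6) and CD180 (8.05) followed, all above 69.5% or more of the tested genes. TLR4 (2.16 CPM) and TLR2 (0.986 CPM) were low, with 0 counts in 2 and 4 libraries. TLR8 and TLR9 were at the limit of detection: TLR8 had 50 counts in all and TLR9 had 37, with 0 counts in 9 and 11 libraries and at most 0.673 and 0.203 CPM in any library.

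**Figure D1:**
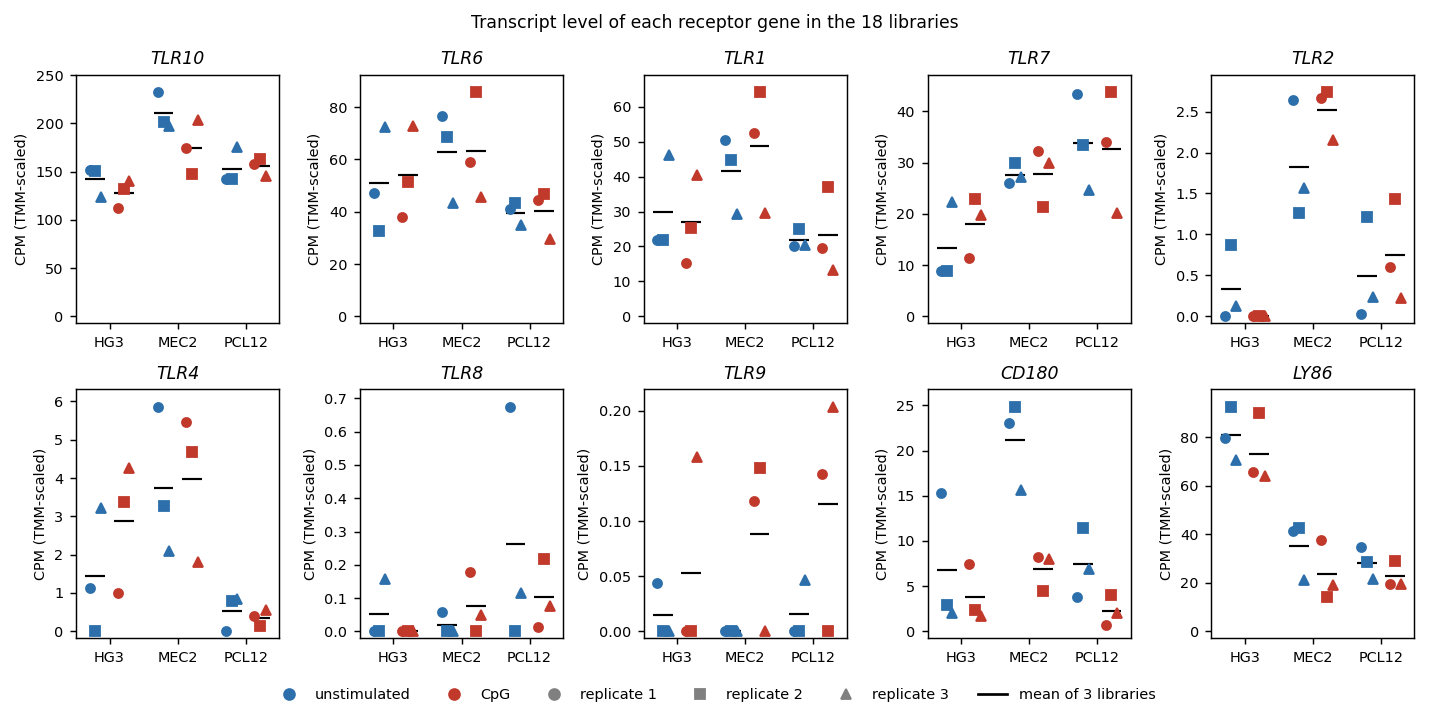
Level of each of the 10 members in CPM (scaled with TMM factors) in the 18 libraries, with 1 panel per gene and the 3 cell lines on the horizontal axis. Blue points are unstimulated and red points CpG-stimulated libraries, circles, squares and triangles are replicates 1, 2 and 3, and black lines are means of 3. CD180 is the member whose red points lie below the blue points of the same shape in every line, and LY86 is higher in HG3 (70.7 to 92.4 CPM unstimulated) than in MEC2 (21.2 to 42.7) and PCL12 (21.6 to 34.6).

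Levels of different genes were compared per kilobase of merged exons in unstimulated cells. The sample labels name a kit that reads mostly from the 3′ end of transcripts, for which counts do not grow with length, so the order per kilobase holds only if the libraries covered whole transcripts. On this scale (mean ± SD, n = 3), LY86 led in HG3 with 67.3 ± 9.05 CPM per kb, ahead of TLR10 with 33.7 ± 3.69. In MEC2 the order of the pair was the opposite, with TLR10 at 49.9 ± 4.47 and LY86 at 29.2 ± 10.0, and in PCL12 TLR10 stood at 36.3 ± 4.50 and LY86 at 23.5 ± 5.40. In plain CPM, the scale for the kit in the labels, TLR10 lay above LY86 in each line. The means were 142 against 80.9 in HG3, 210.5 against 35.1 in MEC2 and 153 against 28.3 in PCL12, so the reversal between lines exists per kilobase only. TLR6 and TLR1 came next in HG3 and did not differ beyond their spread there (7.42 ± 2.94 and 6.62 ± 3.11), nor in MEC2 (9.15 ± 2.53 and 9.15 ± 2.43). In PCL12 TLR7 (6.51 ± 1.80), TLR6 (5.79 ± 0.630) and TLR1 (4.81 ± 0.633) formed a run in which the ranges of mean ± SD of neighbours overlapped. TLR7 had a lower mean than TLR1 in HG3 (2.57 ± 1.50), where their ranges of mean ± SD overlapped, and in MEC2 (5.32 ± 0.388), where they did not. CD180 had the lowest mean of these 6 genes in each line, at 1.19 ± 1.32 in HG3, 3.73 ± 0.853 in MEC2 and 1.31 ± 0.683 in PCL12. In HG3 its range of mean ± SD overlapped that of TLR7.

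The first comparison asked which members respond to CpG. CD180 was lower in the CpG-stimulated library of all 9 pairs, LY86 was lower in 8 of 9, and the other members that were well covered were divided. With the pairs entered as a block, CD180 fell in MEC2 (Log2FC = -1.63, SE 0.351) and in PCL12 (Log2FC = -1.87, SE 0.357) and on average over the lines (Log2FC = -1.36, SE 0.204). TLR10, TLR6, TLR1 and TLR7 had averaged Log2FC values close to 0, and the receptor of the stimulus itself, TLR9, could not be measured.

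In HG3 the CD180 level was 15.3, 2.89 and 1.97 CPM in unstimulated replicates 1, 2 and 3 and 7.40, 2.36 and 1.64 CPM after CpG. In MEC2 it was 23.0, 24.8 and 15.7 CPM in unstimulated cells and 8.25, 4.51 and 8.01 CPM after CpG. In PCL12 the unstimulated libraries held 3.78, 11.5 and 6.94 CPM and the stimulated ones 0.715, 4.03 and 2.06 CPM. The groups were separate in MEC2, where every stimulated library lay below every unstimulated one, and overlapped in HG3 and PCL12, where replicates of a group differed several-fold among themselves. Within pairs, the stimulated library held 35.8%, 18.2% and 51.1% of the unstimulated level in MEC2 and 18.9%, 35.1% and 29.6% in PCL12, while in HG3 it held 48.2%, 81.6% and 83.1%. Of the tested genes, 0.21% were lower in 9 of 9 pairs. In bulk RNA, fewer CD180-positive cells and less CD180 RNA per cell cannot be told apart.

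**Figure D2:**
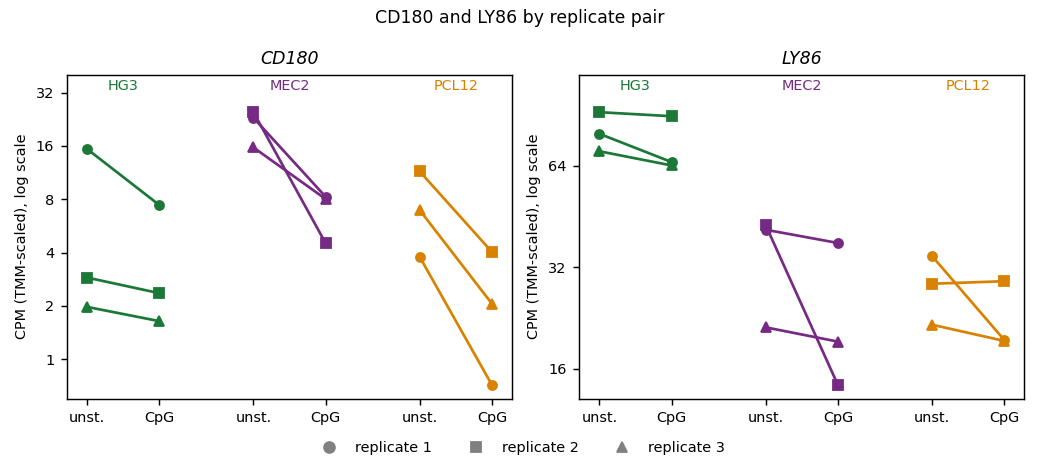
CD180 (left) and LY86 (right) in CPM on a logarithmic axis, with a line joining the unstimulated and the CpG-stimulated library of each of the 9 pairs, by cell line. All 9 CD180 lines descend, from 24.8 to 4.51 CPM at the steepest in MEC2, whereas the LY86 lines are close to level except MEC2 replicate 2 and PCL12 replicate 1.

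Without the block, CD180 differed by Log2FC = -0.83 (SE 0.730) in HG3, -1.61 (SE 0.738) in MEC2, -1.73 (SE 0.751) in PCL12 and -1.39 (SE 0.427, 95% interval -2.32 to -0.46) on average. The unadjusted P values from edgeR were 0.271, 0.0424, 0.0337 and 0.00441, and every adjusted p was 1.00. The averaged CD180 value met the definition of a differentially expressed gene (DEG) used by the study, a nominal P value under 0.01 and an absolute Log2FC of at least 1, which 0.527% of the tested genes met. The edgeR test without the block called 0 of the 10 members at an adjusted p under 0.05 in any of these comparisons, where it called 0.00314% of all tested genes in HG3 and in MEC2, 0% in PCL12 and 0.00941% on average. At an unadjusted P value under 0.05 the members were TLR2 in HG3 (3.73% of all tested genes), CD180 in MEC2 (2.46%) and in PCL12 (2.09%), and TLR2, TLR9 and CD180 on average (4.04%), and DESeq2 and limma-voom called 0 members in each comparison. In MEC2, the line in which 1 of the 10 members (CD180) had groups that did not overlap (4.72% of all tested genes, 2.2% with CpG lower), an exact two-sided permutation test gave p = 0.1, the smallest value 3 against 3 allow.

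With the replicate block in edgeR, CD180 was the 1 member of 10 called in MEC2 (adjusted p = 0.00246, 0.333% of all genes called), in PCL12 (adjusted p = 0.000708, 0.0471% called) and on average (adjusted p = 6.91e-08, 0.555% called). On average it ranked 13 of 31872 genes by P value. This fit drew the spread of each gene almost wholly from the other genes. ZC3H12A, TNF, POU2F2 and IRF8, for example, all had an averaged SE of 0.120 in it. Its P values and ranks therefore say little of the spread of CD180 itself between pairs. HG3 had 0 of 10 members called with the block (0.135% of all genes), with TLR2 and TLR7 at an unadjusted P value under 0.05 (3.59%), and CD180 had Log2FC = -0.56 there (SE 0.354, P value 0.114). The averaged call was kept when any of the 9 pairs was left out, with Log2FC between -1.47 and -1.22 and an adjusted p between 3.05e-10 and 2.36e-05. The calls within lines were less robust. In MEC2 the adjusted p was 0.0683 without the pair of replicate 1 and 0.399 without that of replicate 2 (Log2FC = -1.23), and in PCL12 it was 0.329 without the pair of replicate 1 (Log2FC = -1.63). With limma-voom and the same block, CD180 passed on average (Log2FC = -1.42, adjusted p = 0.0177) and not in MEC2 (adjusted p = 0.0997) or PCL12 (adjusted p = 0.827).

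**Figure D3:**
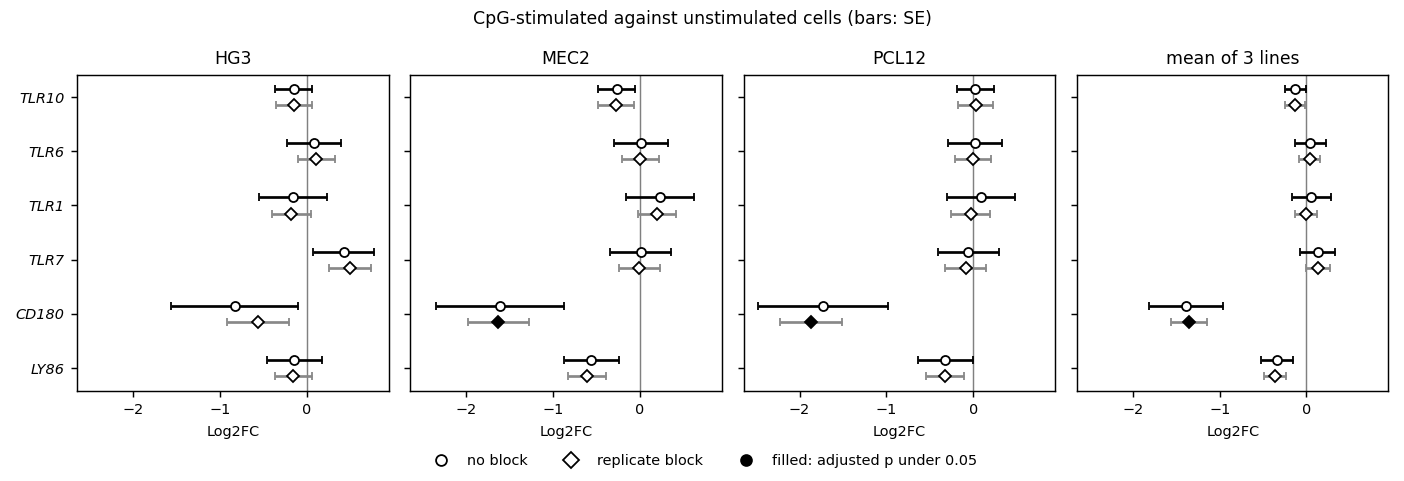
Log2FC of CpG-stimulated against unstimulated cells with its SE for 6 members, in HG3, MEC2, PCL12 and as the mean of the 3 lines. Circles are the edgeR fit without and diamonds the fit with the replicate block, filled where the adjusted p is under 0.05. CD180 lies left of 0 in each panel and is filled with the block in MEC2 (-1.63), PCL12 (-1.87) and the mean (-1.36). TLR10, TLR6, TLR1 and TLR7 lie near 0 in the mean, with TLR7 further to the right in HG3.

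CD180 was one of the members whose level differed between the PCL12 libraries that stood apart and the others, with a mean of 6.13 CPM in replicates 2 and 3 against 2.25 CPM in replicate 1 and 14.0 CPM in MEC2. Without replicates 2 and 3 the 1 remaining pair gave Log2FC = -2.40 for PCL12 (SE 1.23 without and 0.664 with the block, adjusted p = 0.154 with it), which takes the spread from the other lines. The average was then -1.60 without the block (adjusted p = 1.00) and -1.52 with it (adjusted p = 0.000110). In HG3 the size of the difference depended on replicate 1: without the pair of replicate 1 the Log2FC was -0.28 with the block, and without the unstimulated library alone, with its partner kept, it was 0.67 in the fit that ignores the pairs. Leaving out the pairs of the libraries with the highest mitochondrial shares, HG3 replicate 2 and MEC2 replicate 2, gave Log2FC = -1.22 in MEC2 (adjusted p = 0.0153) and -1.26 on average (adjusted p = 3.65e-10) with the block.

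Whether the CD180 response differed between lines was tested as a difference of the Log2FC values. The difference was -0.78 (SE 1.02) for MEC2 minus HG3, -0.90 (SE 1.03) for PCL12 minus HG3 and -0.12 (SE 1.02) for PCL12 minus MEC2, each with an adjusted p of 1.00. With the block the values were -1.07 (SE 0.493, P value 0.0294), -1.32 (SE 0.497, P value 0.00809) and -0.24 (SE 0.486), and no adjusted p was below 0.05. In these 3 differences edgeR called 0 of 10 members both without the block (0%, 0.00314% and 0% of all tested genes called) and with it (0.141%, 0.069% and 0.0126%), and DESeq2 and limma-voom also called 0. At an unadjusted P value under 0.05 TLR2 was found in both differences against HG3 without the block (4.1% of all tested genes for MEC2 and 4.16% for PCL12), TLR2 and CD180 in both with it (3.53% and 2.39%), and none for PCL12 minus MEC2. CD180 met the DEG definition for PCL12 minus HG3 with the block (0.668% of all tested genes did) and not without it. The same blocked fit called NFKBIZ, a response gene, for MEC2 minus HG3 (Log2FC = 1.44, adjusted p = 0.00193), a call that edgeR without the block, DESeq2 and limma-voom did not make. Without PCL12 replicates 2 and 3 the CD180 differences were -1.59 for PCL12 minus HG3 (-1.85 with the block) and -0.80 for PCL12 minus MEC2 (-0.78 with the block), with no adjusted p below 0.05.

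LY86, the partner of CD180, was at 79.7, 92.4 and 70.7 CPM in unstimulated HG3 and at 65.7, 89.9 and 64.2 CPM after CpG. In MEC2 it was at 41.4, 42.7 and 21.2 CPM in unstimulated cells and at 37.8, 14.3 and 19.2 CPM after CpG. In PCL12 it was at 34.6, 28.6 and 21.6 CPM and, after CpG, at 19.5, 29.1 and 19.3 CPM. The groups overlapped in each line, and the widest gaps within a pair were in MEC2 replicate 2, where the stimulated library held 33.5% of the unstimulated level, and in PCL12 replicate 1, where it held 56.3%. The stimulated library of MEC2 replicate 2 is the one with 19.7% mitochondrial counts, and the part of this in its LY86 level was not tested. The averaged Log2FC was -0.34 (SE 0.184, P value 0.0738 in edgeR), and -0.36 with the block (SE 0.126, P value 0.00402, adjusted p = 0.317). With the block it was -0.20 without the pair of MEC2 replicate 2 (P value 0.0810), and -0.52 without PCL12 replicates 2 and 3. LY86 thus lay below its unstimulated level in most pairs without passing the test.

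The TLR1 family and TLR7 did not pass the test in any line. TLR10 was at 151, 150 and 124 CPM in unstimulated HG3 and 112, 132 and 140 CPM after CpG, at 232, 202 and 197 CPM and then 174, 147 and 203 CPM in MEC2, and at 142, 142 and 175 CPM and then 158, 163 and 146 CPM in PCL12. Its stimulated and unstimulated libraries overlapped in each line, and its averaged Log2FC was -0.13 (SE 0.123, 95% interval -0.40 to 0.14). For TLR6 the average was 0.04 (SE 0.178, -0.35 to 0.43), for TLR1 0.06 (SE 0.225, -0.44 to 0.55) and for TLR7 0.13 (SE 0.203, -0.31 to 0.57). None of these 4 intervals reaches 1 in either direction on the log2 scale, and the signs for TLR6 and TLR1 turned when single libraries were left out. Over the 3 lines, the Log2FC values of these 4 genes ran from -0.27 (TLR10 in MEC2) to 0.43 (TLR7 in HG3). TLR7 in HG3 stood at 8.90, 8.82 and 22.4 CPM in unstimulated replicates 1, 2 and 3 and at 11.4, 22.9 and 19.8 CPM after CpG, and with the block its Log2FC was 0.50 (P value 0.0376, adjusted p = 1.00 in edgeR).

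TLR2, which pairs with TLR1 and TLR6, was not detected in any of the 3 stimulated HG3 libraries, while the unstimulated ones held 0, 17 and 5 counts, 22 in all. Taken against 3 counts over the group, the TLR2 level was at least 7.34-fold lower after CpG in HG3. The edgeR P value was 0.00208 (adjusted p = 1.00, and 0.118 with the block), and TLR2 was the 1 of 10 members in HG3 that met the DEG definition (0.496% of the tested genes met it). Of the 22 counts, 17 came from unstimulated replicate 2, the HG3 library with the highest mitochondrial share, and the part of that library's quality in the TLR2 count was not tested. Without this library the remaining 5 counts set the bound at 2.06-fold and TLR2 no longer met the DEG definition (P value 0.0398, and 0.0445 with the block and the pair left out). In MEC2 the TLR2 level was 2.64, 1.27 and 1.57 CPM without and 2.66, 2.73 and 2.15 CPM with CpG, groups that overlapped. TLR4 lay between 0 and 5.84 CPM and its groups overlapped in each line. TLR9 had 33 counts over the 9 stimulated libraries, in 5 of them, and 4 over the 9 unstimulated ones, in 2 of them, and given the shared exons no difference was read from these counts. TLR8 had 16 and 34 counts.

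The median Log2FC of the 10 members was -0.14 in HG3, 0.05 in MEC2, -0.02 in PCL12 and -0.04 on average, beside 0, 0, 0.02 and 0.03 over all tested genes. The comparisons within lines use separate libraries, and the averaged comparison uses the same libraries again.

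The second comparison set the unstimulated lines beside each other. LY86 was lower in MEC2 and PCL12 than in HG3, and TLR7 was higher in PCL12 than in HG3. The 3 comparisons share their unstimulated libraries, so they are not independent of each other. Between lines, 9.78% of the tested genes were called in MEC2 against HG3, 9.44% in PCL12 against HG3 and 2.05% in PCL12 against MEC2 (adjusted p under 0.05, edgeR). The members called were 1, 2 and 0 of 10, where 1 member is 10% of the set.

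LY86 in unstimulated cells was 80.9 ± 10.9 CPM (SD, n = 3) in HG3, 35.1 ± 12.03 in MEC2 and 28.3 ± 6.50 in PCL12, with every HG3 library above every library of the other lines. The Log2FC was -1.21 (SE 0.322, adjusted p = 0.0141) for MEC2 against HG3 and -1.52 (SE 0.324, adjusted p = 0.00212) for PCL12 against HG3. The MEC2 call was lost without unstimulated HG3 replicate 2 (adjusted p = 0.0518) and without unstimulated MEC2 replicate 3 (Log2FC = -0.94, adjusted p = 0.103). With replicate 1 as the sole PCL12 library, the PCL12 difference was -1.21 (adjusted p = 0.244). MEC2 and PCL12 differed by -0.31 on the same scale, which did not pass.

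TLR7 in unstimulated cells was 13.4 ± 7.81 CPM in HG3, 27.7 ± 2.02 in MEC2 and 33.9 ± 9.38 in PCL12. HG3 replicates 1 and 2 were at 8.90 and 8.82 CPM and replicate 3 at 22.4 CPM, just below the lowest MEC2 (26.0) and PCL12 (24.7) libraries. TLR7 was higher in PCL12 than in HG3 (Log2FC = 1.34, SE 0.358, adjusted p = 0.0147), and its difference between MEC2 and HG3 (Log2FC = 1.05, SE 0.356, adjusted p = 0.0632) met the DEG definition without passing the adjusted threshold (2 of 10 members met it in MEC2 against HG3, LY86 and TLR7, and 10.4% of all tested genes did). Without unstimulated HG3 replicate 3 the latter was 1.64 (adjusted p = 0.00351), and it did not meet the DEG definition without HG3 replicate 1 or 2 (both 0.85) or without MEC2 replicate 2 (0.99) or 3 (P value 0.0119). Without PCL12 replicates 2 and 3 the PCL12 value was 1.71 (adjusted p = 0.0303), a test of 1 PCL12 library with the spread of the other groups. It was lost without unstimulated HG3 replicate 1 (adjusted p = 0.0725) or 2 (0.0624), without unstimulated PCL12 replicate 1 (0.0761) and in a fit of these 6 libraries alone (0.0753).

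**Figure D4:**
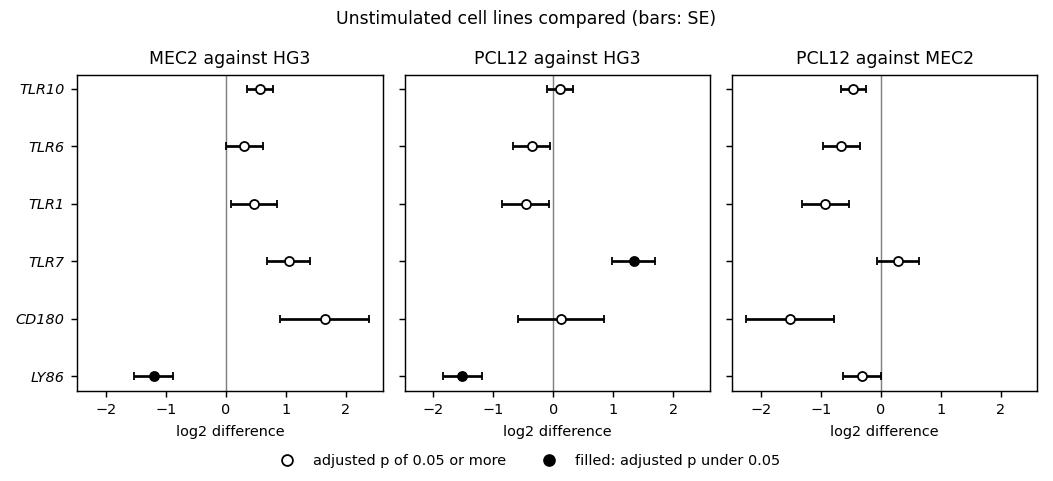
Difference in log2 level between unstimulated lines with its SE for TLR10, TLR6, TLR1, TLR7, CD180 and LY86, in 3 panels (MEC2 against HG3, PCL12 against HG3, PCL12 against MEC2), from edgeR. Filled points have an adjusted p under 0.05, which are LY86 (-1.21) in the first panel and LY86 (-1.52) and TLR7 (1.34) in the second, and the third panel has none.

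CD180 and TLR10 had their highest unstimulated levels in MEC2. CD180 was 6.73 ± 7.47 CPM in HG3, 21.2 ± 4.84 in MEC2 and 7.40 ± 3.87 in PCL12, with every MEC2 library above the others, although HG3 replicate 1 (15.3 CPM) reached nearly the lowest MEC2 library (15.7 CPM). Its Log2FC was 1.64 for MEC2 against HG3 (SE 0.737, adjusted p = 0.202) and -1.52 for PCL12 against MEC2 (SE 0.735, adjusted p = 0.465), and 0.13 for PCL12 against HG3 (SE 0.722). The value for MEC2 against HG3 was 3.13 without unstimulated HG3 replicate 1 (adjusted p = 0.00489) and was 1.205 to 1.82 without any other single library, with no adjusted p below 0.05. Without PCL12 replicates 2 and 3 the values were -2.46 for PCL12 against MEC2 (adjusted p = 0.452) and -0.82 for PCL12 against HG3. TLR10 was 142 ± 15.6 CPM in HG3, 210.5 ± 18.9 in MEC2 and 153 ± 19.0 in PCL12, with a Log2FC of 0.57 for MEC2 against HG3 (SE 0.214, adjusted p = 0.102). Other tools called more members in this comparison: TLR10 had an adjusted p of 0.0319 in DESeq2 and 0.0329 in limma-voom, CD180 0.0275 and TLR2 0.0193 in limma-voom, and TLR7 0.0377 in DESeq2. The Log2FC of TLR2, at 0 to 17 counts in the unstimulated HG3 libraries, was 2.53 in edgeR (adjusted p = 0.205) and 4.04 in limma-voom.

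In MEC2 against HG3, 5 of 10 members had groups that did not overlap (22.2% of all tested genes), TLR10, TLR2, CD180 and TLR7 with MEC2 higher and LY86 with MEC2 lower. In PCL12 against HG3 there were 2 of 10 (21.1%), LY86 and TLR7. In PCL12 against MEC2 there were 6 of 10 (17.3%), TLR10, TLR1, TLR6, TLR2, CD180 and TLR4, each lower in PCL12 (7.59% of all tested genes were lower without overlap). TLR6 and TLR2 overlapped when the counts were scaled to library totals, which left 4 of 10 (17.4% of all tested genes), and the TLR6 groups met at 43.2 CPM with TMM factors. For this last pair edgeR, DESeq2 and limma-voom called 0 members at an adjusted p under 0.05, and the members at an unadjusted P value under 0.05 in edgeR (11% of all tested genes) were TLR4 (Log2FC = -2.78), TLR1 (-0.93), TLR6 (-0.66) and TLR10 (-0.46). Without PCL12 replicates 2 and 3 the values were -1.02 for TLR1, -0.59 for TLR6 and -0.54 for TLR10, none at a P value under 0.05. TLR4 had 0 counts in unstimulated PCL12 replicate 1 against 22 and 36 in replicates 2 and 3, so its fitted value without these libraries (-10.03, P value 0.00206, adjusted p = 0.0821) gives no size. TLR1 was at 50.5, 44.8 and 29.2 CPM in unstimulated MEC2 and 20.04, 25.1 and 20.3 CPM in PCL12, and TLR6 at 76.5, 68.4 and 43.2 CPM and 40.9, 43.2 and 34.9 CPM. The HG3 libraries lay between the lowest and the highest of these for TLR1 and partly below them for TLR6, with TLR1 at 21.8, 22.0 and 46.3 CPM and TLR6 at 47.2, 32.8 and 72.5 CPM.

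TLR1 and TLR6 varied together. In HG3 replicate 3 both were high, with 46.3 and 40.5 CPM of TLR1 and 72.5 and 72.6 CPM of TLR6 in the unstimulated and the stimulated library, and in MEC2 both were lowest in replicate 3. Over the 18 libraries the Pearson correlation of their log2 CPM values was 0.900, and 0.893 after the group means were removed. The libraries of a gene pair share depth and sample quality, and TLR1 and TLR6 share some sequence, so this is a description. Between CD180 and LY86 the value was -0.025, and 0.235 within groups.

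**Figure D5:**
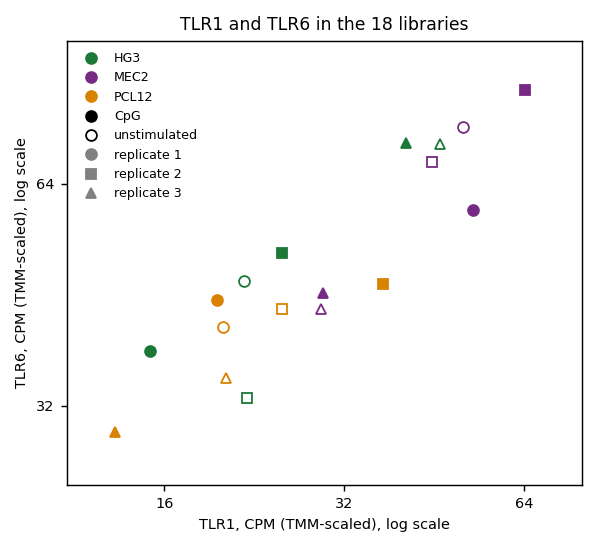
TLR6 level against TLR1 level in CPM, both on logarithmic axes, in the 18 libraries, with colour for the cell line and separate symbols for unstimulated and CpG-stimulated libraries. The points of each line spread along 1 band, from PCL12 stimulated replicate 3 (13.3 CPM of TLR1 and 29.4 CPM of TLR6) to MEC2 stimulated replicate 2 (64.1 and 85.6 CPM).

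Over 13989 genes that averaged 1 CPM or more, the 2 genes whose log2 CPM correlated most with each member over the 18 libraries were named. They were CD69 (0.933), an early activation marker of lymphocytes, and PRKX (0.911) for TLR1, KIAA0232 (0.954) and SECISBP2L (0.937) for TLR6, LSM14A (0.873) and KIF18A (0.862) for TLR10, and RAB20 (0.917) and SYT11 (0.899) for TLR7. For TLR4 they were IL7R (0.953), the interleukin-7 receptor, and THUMPD1 (0.894). For CD180 they were LRMP (0.888) and FFAR2 (0.844), and for LY86 SKAP1 (0.960) and DNAJC1 (0.955). These are maxima over many genes, and the points share libraries and lines.

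The other TLRs were scarce. TLR3, the endosomal receptor of double-stranded RNA, had group means of 3.01 CPM in unstimulated and 2.64 CPM in stimulated HG3 and at most 0.317 CPM in the other groups, and TLR5, the receptor of flagellin, at most 0.318 CPM. The adaptor MYD88 had group means of 73.2 to 95.3 CPM.

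Among the genes that serve the TLRs, no chaperone or signal transducer passed the test for CpG. Of the 18 tested chaperones and co-receptors and the 21 signal transduction genes, edgeR with and without the block, DESeq2 and limma-voom called 0 in each line and on average. At an unadjusted P value under 0.05 in edgeR without the block the chaperones and co-receptors numbered 0 in HG3, 0 in MEC2, 1 in PCL12 and 0 on average, and the signal transduction genes 0, 3, 0 and 3, where the shares of all tested genes were 3.73%, 2.46%, 2.09% and 4.04%. The 20 response genes were listed with earlier results of these data known. From the same libraries the study reported NFKBIZ and ZC3H12A as upregulated in MEC2 and PCL12. Their calls and the counts below are therefore no independent result. Of the 20, NFKBIZ, an inducible regulator of NF-κB, rose in MEC2 (Log2FC = 2.20, SE 0.331, adjusted p = 0.0154) and on average (Log2FC = 1.52, SE 0.187, adjusted p = 0.000398). ZC3H12A, an RNase that degrades cytokine mRNAs, rose on average (Log2FC = 1.29, SE 0.177, adjusted p = 0.00161). Both averaged calls were also made by DESeq2 and limma-voom and when any single library was left out, and that of ZC3H12A was lost without PCL12 replicates 2 and 3 (Log2FC = 1.37, adjusted p = 0.107). The MEC2 call of NFKBIZ was made by DESeq2 and not by limma-voom (Log2FC = 2.21, adjusted p = 0.245), and it was kept when 2 of the 6 MEC2 libraries were left out in turn and lost for the other 4, both libraries of replicate 2, CpG replicate 1 and unstimulated replicate 3, with Log2FC between 2.03 and 2.42 throughout. With the block 0 of the response genes were called in HG3 (5 at an unadjusted P value under 0.05), 7 in MEC2, 3 in PCL12 and 9 on average, all higher, with TNF among them on average (Log2FC = 0.83, adjusted p = 1.12e-08), where the block called 0.135%, 0.333%, 0.0471% and 0.555% of all tested genes (3.59% at an unadjusted P value under 0.05 in HG3). Without PCL12 replicates 2 and 3 the blocked fit kept NFKBIZ and ZC3H12A in PCL12, and these with TNF on average. The share of all tested genes is not given for that fit. Of 11 B-cell transcription factors, POU2F2 (Log2FC = 0.52, adjusted p = 0.00603) and IRF8 (Log2FC = 0.44, adjusted p = 0.0433) rose on average with the block and none without it, and neither passed with the block once PCL12 replicates 2 and 3 were left out (adjusted p = 0.0659 and 0.376).

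Between unstimulated lines, UNC93B1, the chaperone that carries TLR7 and TLR9 to endosomes, was higher in MEC2 (Log2FC = 1.01, adjusted p = 0.0122) and in PCL12 (Log2FC = 0.92, adjusted p = 0.0245) than in HG3, with mean levels of 89.0, 83.4 and 44.1 CPM. It was the 1 of 18 chaperones and co-receptors called by edgeR in MEC2 against HG3 (9.78% of all tested genes were called), where DESeq2 called 3 and limma-voom 1. In PCL12 against HG3 (9.44% of all tested genes) 5 of 18 were called, of which 3 were higher, with GRN (Log2FC = 1.79, adjusted p = 0.000131) and CTSB (1.15, adjusted p = 0.0444) beside UNC93B1, and 2 were lower, CNPY3 (-1.04, adjusted p = 0.00625) and LY96 (-2.17, adjusted p = 0.0243). When PCL12 replicates 2 and 3 were left out, GRN (2.35, adjusted p = 0.000146) and CTSB (1.69, adjusted p = 0.0338) passed, and UNC93B1 (1.12, adjusted p = 0.136), CNPY3 (-0.97, adjusted p = 0.266) and LY96 (-2.45, adjusted p = 0.212) did not. The CTSB call was not made by limma-voom (adjusted p = 0.0608). LY96, the partner of TLR4, stood at 5.89 CPM in HG3, 2.28 CPM in MEC2 and 1.31 CPM in PCL12. LY86 and LY96 RNA were thus both lower in PCL12 than in HG3, and neither call was kept without PCL12 replicates 2 and 3. Among the 21 signal transduction genes, IRAK1, a kinase downstream of MYD88, was higher in MEC2 than in HG3 (Log2FC = 1.03, adjusted p = 0.0228), and the adaptor TICAM1 was lower in MEC2 (-1.06, adjusted p = 0.00152) and in PCL12 (-1.27, adjusted p = 0.000202). IRF5, a transcription factor downstream of TLR7 and TLR9, was lower in MEC2 than in HG3 (-1.36, adjusted p = 0.000674) and higher in PCL12 than in MEC2 (1.57, adjusted p = 0.000695), and MAP3K7 was lower in PCL12 than in HG3 (-0.89, adjusted p = 0.0112). Without PCL12 replicates 2 and 3 the IRF5 call against MEC2 was kept (1.82, adjusted p = 0.00463), and those of TICAM1 (-1.13, adjusted p = 0.109) and MAP3K7 (-1.18, adjusted p = 0.0784) were lost. Of the 20 response genes, 7 were lower and 1 higher in MEC2 than in HG3 (9.78% of all tested genes called), and 7 and 1 in PCL12 (9.44%). IER3 (-2.10 and -3.33), NFKBIE (-1.49 and -1.89) and NFKBIZ (-2.38 and -1.71) were lower in MEC2 and PCL12, and the higher gene was IL10 in both, listed at 0 in HG3 and at 0.752 and 0.261 CPM in MEC2 and PCL12. The PCL12 call of IL10 was not made by limma-voom (adjusted p = 0.143) and was lost without PCL12 replicates 2 and 3. IER3, NFKBIE and NFKBIZ were lower there too, beside TNFAIP3, CCL3 and CCL4. CCL4 is one of the 45 genes chosen for a low level in PCL12 replicate 1 against MEC2. TNF was lower in PCL12 than in MEC2 (-1.54, adjusted p = 0.00122, and 0.0694 without PCL12 replicates 2 and 3). Of the 11 B-cell transcription factors, PAX5, which maintains B-cell identity, was higher in MEC2 (Log2FC = 1.60, adjusted p = 0.000591) and in PCL12 (1.46, adjusted p = 0.00155) than in HG3, and in PCL12 against HG3 SPIB was higher (1.16, adjusted p = 0.0484) and EBF1 lower (-0.99, adjusted p = 0.0434). Limma-voom did not make the SPIB (adjusted p = 0.105) and EBF1 (0.0819) calls, which were also lost when most single libraries were left out, and with PCL12 replicate 1 alone SPIB passed (1.74, adjusted p = 0.00946) and PAX5 (1.27, adjusted p = 0.125) and EBF1 (-1.32, adjusted p = 0.200) did not. Calls gained with PCL12 replicate 1 alone were TLR3, lower than in HG3, IRAK3, lower than in HG3 and MEC2 and one of the 45 genes chosen for a low level in that replicate against MEC2, and GRN, higher than in MEC2. Of the cell type markers, PAX5 apart, CD74 was lower in PCL12 than in HG3 (-0.92, adjusted p = 0.0302), the plasma cell marker SDC1 was higher in MEC2 than in HG3 (1.99, adjusted p = 0.000654) and lower in PCL12 than in MEC2 (-1.56, adjusted p = 0.0225), the NK-cell marker GNLY was higher in MEC2 (3.83, adjusted p = 0.00997) and PCL12 (4.11, adjusted p = 0.00641) than in HG3, and the monocyte marker VCAN was lower in PCL12 than in HG3 (-4.25, adjusted p = 0.0121). The PCL12 calls of these markers are not given without PCL12 replicates 2 and 3. The part of the markers in the differences between lines was not tested.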

How the data were processed

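RNA of 18 samples from 3 CLL cell lines was sequenced. The authors deposited raw counts of reads per gene, not normalized, in 1 table of 56609 gene symbols, and every column was assigned to a line, a treatment and a replicate by the sample labels (columns of no sample in this series: 0). Per the submitters' processing notes the tools were FastQC, MultiQC, Trimmomatic, STAR and featureCounts on hg38, and their versions, the gene annotation and any removal of duplicate reads are not given in the sources used here. The kits differ between sources, with Promega (RNA) and Lexogen QuantSeq (libraries) in the labels and Qiagen (RNA) with a stranded reverse protocol in the paper. Reads that are PCR copies may have been counted separately, so the number of counts covers counting error only.

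Tests were run in edgeR 4.0.16, DESeq2 1.42.0 and limma 3.58.1 under R 4.3.3, and the other steps in Python 3.11.15 (pandas 2.3.3, matplotlib 3.10.9). The filter required a sum of 10 counts over the 18 libraries, which 31872 of the 42248 detected genes met. After TMM scaling, edgeR (robust quasi-likelihood) was used with 1 mean for each of the 6 groups and 12 residual degrees of freedom. P values were adjusted by Benjamini-Hochberg over all tested genes, and tests are two-sided. The same design with the replicate number of each line as a block was fitted beside it. In edgeR the blocked fit drew the spread of each gene almost wholly from the other genes, so its P values may be too small for variable genes. The description of the series states that a replicate series held 1 stimulated and 1 unstimulated sample, so the numbers pair the libraries of a line. After group means were removed, the correlation of same-numbered libraries (replicates 1, 2, 3) was 0.0928, 0.0579, 0.203 for HG3, then 0.0285, -0.0785, 0.327 for MEC2, then 0.212, 0.149, 0.216 for PCL12. Log2 CPM used a prior count of 2. No 2 replicates of a group agreed within sampling noise, with a chi-square per gene of 17.4 or more. The fits were also run on simulated counts with the same spread for every gene. That setting cannot show whether their P values hold for genes as variable as CD180.

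The members and the gene lists were chosen with earlier results of these data known. Named are all 10 members, from each of the 5 pathway and transcription factor lists up to 3 genes in each direction with the smallest P values among those past an adjusted p of 0.05 (without the block, and with it on average and between responses), and the 2 genes most correlated with each member of at least 1 CPM. Alternatives were DESeq2, limma-voom, RLE scaling, library totals, filterByExpr, no filter, the block, a fit of the compared libraries alone, each library left out in turn, and PCL12 without replicates 2 and 3. Chosen after seeing the data were limma-voom with the block, and the block with pairs left out.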

Additional observations from a re-analysis of the deposited data

How the results depend on the processing

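At an adjusted p under 0.05, the number of members called for CpG was 0 in each line and on average, and it was 1 with the replicate block in MEC2, in PCL12 and on average (CD180 each time), with no other CpG call changed by the block. On average it was also 1 without a low-count filter, with limma-voom and the block, and with the block without PCL12 replicates 2 and 3 or without the pairs of HG3 replicate 2 and MEC2 replicate 2, which also gave 1 in MEC2. HG3 had 1 (TLR2) without a filter. When single libraries or pairs were left out the number ran from 0 to 1 in MEC2, in PCL12 and on average. For unstimulated MEC2 against HG3 it was 1, and 3 with DESeq2, library totals or no filter, 4 with limma-voom and 0 to 2 with libraries left out. For PCL12 against HG3 it was 2, and 1 in a fit of the compared libraries alone or without PCL12 replicates 2 and 3, and 1 to 2 with libraries left out, and for PCL12 against MEC2 it was 0, and 2 without a filter. The shares of all tested genes called under each alternative are not given here or below. These numbers therefore show how a setting moves the calls and not whether the members stand out under it. Between lines the replicate number marks nothing that libraries share in the labels. As a block it changed no member call there, and of the list genes named it lost CTSB (adjusted p = 0.0879) and IL10 (0.0884) in PCL12 against HG3. Of the calls named between lines, leaving out single libraries lost those of UNC93B1, IRAK1, CTSB, CNPY3, LY96, MAP3K7, SPIB, EBF1 and, in PCL12, IL10.

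The number that met the DEG definition for CpG in HG3 was 1, and 0 with limma-voom with or without the block, with the line alone and with the block without the rich mitochondrial pairs, and 0 to 2 with libraries left out. In MEC2 it was 0, and 1 with limma-voom, no filter, the block, the line alone, limma-voom with the block and the block without those pairs (0 to 1 with libraries left out). In PCL12 it was 0, and 1 with limma-voom with or without the block, no filter and the block, and 2 with the block without replicates 2 and 3 (0 to 1 with libraries left out). On average it was 1, and 2 without a filter and with the block without PCL12 replicates 2 and 3 (0 to 2 with libraries left out). For MEC2 against HG3 it was 2, and 4 with limma-voom or no filter, 3 with the block, 1 in the 6 libraries alone and 0 to 2 with libraries left out. For PCL12 against MEC2 it was 0, and 2 with limma-voom or no filter and 1 with DESeq2, the compared libraries alone or without PCL12 replicates 2 and 3. For the difference of MEC2 minus HG3 it was 1, and 0 with limma-voom with or without the block and with the block without the rich mitochondrial pairs (0 to 1 with libraries left out). For PCL12 minus HG3 it was 1, and 2 with the block, 0 with limma-voom with or without the block and 0 to 2 with libraries left out, and for PCL12 minus MEC2 it was 0, and 1 with the block without PCL12 replicates 2 and 3.

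Signs turned as follows. The averaged Log2FC of TLR1 was -0.015 with limma-voom, -0.0019 with the replicate block and -0.11 with the block without the rich mitochondrial pairs, which gave -0.10 for TLR6. With libraries left out TLR1 ran from -0.12 to 0.21, TLR6 from -0.050 to 0.16 and TLR7 from -0.0046 to 0.33. CD180 ran from -1.76 to 0.67 for CpG in HG3, from -2.29 to 0.15 for MEC2 minus HG3, from -2.40 to 0.029 for PCL12 minus HG3, from -0.81 to 0.37 for PCL12 minus MEC2 and from -0.35 to 1.62 between unstimulated PCL12 and HG3, where it was -0.82 without PCL12 replicates 2 and 3. LY86 without those replicates was 0.0082 between unstimulated PCL12 and MEC2, and for its CpG effect in PCL12 minus MEC2 it was -0.28, or -0.24 with the block, and -0.20 with the block without the rich mitochondrial pairs (-0.19 to 0.74 with libraries left out). For MEC2 minus HG3 the effect on LY86 was 0.072 with the block without those pairs (-0.92 to 0.018 with libraries left out), and for PCL12 minus HG3 it ran from -0.41 to 0.064. The cause was not tested in any of these. Of the 60 group levels, 0 moved by more than 1 SD with library totals and 3 without mitochondrial genes, and of the 20 PCL12 levels 3 did with replicate 1 alone. Depth limits TLR8 and TLR9, and shared exons limit TLR9.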
